A study of Mus musculus with 4 samples.

Results

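The data described here are a pair of Affymetrix GeneChip arrays, which read most mouse genes through probe sets, hybridised with RNA from mouse embryonic fibroblasts that lack FAN (FAN -/-) and from wild-type fibroblasts (FAN +/+), both treated with tumour necrosis factor (TNF). These 2 arrays were chosen by their titles out of the 4 arrays of the series, which holds 1 array for each of 2 genotypes with and without TNF. Both genotypes are labelled C57BL/6 fibroblasts. The treated cells were kept without serum for 8 h and then given TNF at 50 ng/ml for a further 16 h in serum-free medium, and the untreated cells spent 24 h without serum. The genotype entry of 2 of the 4 arrays disagrees with its own title, and by that entry both TNF arrays would be FAN -/-. The titles were followed throughout, so that every direction given here is that of the array titled FAN -/-, TNF treated, minus the array titled FAN +/+, TNF treated. With 1 array a side there is no replicate spread, no test and no p-value. The differences are sizes between these 2 arrays, and the number of arrays limits their precision.

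FAN is the product of Nsmaf, a BEACH domain adaptor that binds the cytoplasmic tail of the TNF receptor TNFR1 and couples it to neutral sphingomyelinase. The same receptor drives the NF-kB pathway through another part of its tail, by way of TRADD, TRAF2 and the IkB kinases. In fibroblasts exposed to TNF, NF-kB switches on chemokines, cytokines, adhesion molecules and its own inhibitors, and interferon made by the cells then acts through STAT and IRF factors on a further layer of antiviral and antigen-presentation genes.

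Values are the deposited log2 signals, printed here as linear signals, and values below the median of all values on the 4 arrays were raised to that floor, a signal of 77.0. Each gene was read from its probe set of highest mean signal. Of 18193 genes with a probe set naming a single gene, 11971 were above the floor on at least 1 TNF array. On the wild-type TNF array 50.0% of all values were above the floor and on the FAN -/- TNF array 50.5%, and the 18 spiked-in control probe sets differed by -0.18 to 0.05. The ratio of the 3′ to the 5′ probe set of beta-actin was 1.39 in wild-type cells and 1.32 in FAN -/- cells. The median difference over the 11971 genes was 0.02, and the 7 housekeeping genes of a list lay between -0.26 and 0.42.

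With TNF, 323 genes were at least 2-fold lower in FAN -/- cells than in wild-type cells, which is 2.70% of the genes compared, and 189 genes, or 1.58%, were at least 2-fold higher. For 36 of the 323 lower genes and 16 of the 189 higher genes 1 of the values was at the floor, so their fold is a bound. The larger gaps lay on the lower side: 77 genes were at least 4-fold lower and 17 at least 4-fold higher, and 23 were at least 8-fold lower against 1 that was 8-fold higher. Counted over the 20700 probe sets above the floor, 511 were lower (2.47%) and 293 were higher (1.42%). Where a lower gene had another probe set above the floor, the others had the same sign in 133 of 139 genes. The same held in 78 of 80 higher genes. At the edge of the 2-fold rule, Ets2 (-1.002) and Foxf2 (-1.003) were just counted as lower, and Tbx18 (-0.999) and Socs3 (-0.998) were just left out. On the higher side Mamdc2 (1.002) and Pde5a (1.003) were counted, and Ddit4l (0.993) and Irx3 (0.992) were not.

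**Figure D1:**
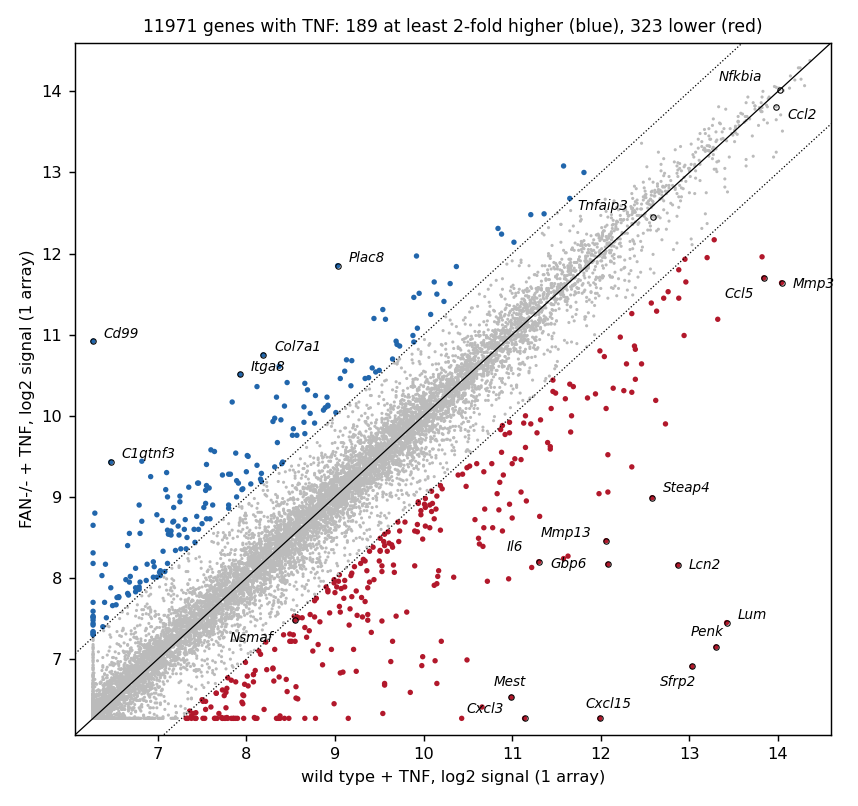
Log2 signal of 11971 genes on the wild-type TNF array (x axis) and the FAN -/- TNF array (y axis). Blue points are the 189 genes at least 2-fold higher in FAN -/- cells, red points the 323 lower genes, dotted lines mark 2-fold and the solid line marks equal signal; red points reach much farther from the line than blue points, and Nfkbia, Tnfaip3 and Ccl2 lie on or near it.

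Nsmaf itself was read by 1 probe set. Wild-type cells had a signal of 496 without TNF and 376 with it, and FAN -/- cells had 240 and 179. Both arrays titled FAN -/- were below both arrays titled FAN +/+, and with TNF the FAN -/- signal was 47.7% of the wild-type signal. The probe set thus still gave a signal above the floor in the cells titled FAN -/-. The sources used here do not say where the gene was disrupted, so whether this probe set lies within the lost part is unknown and its signal checks the labels only in part. With the floor set at the 70th percentile the Nsmaf difference was -0.71, under 2-fold. Among 36 neighbouring genes of Nsmaf on chromosome 4, of which 21 were above the floor, 2 were at least 2-fold lower (Penk and Tox, the latter named after its values were seen) and 0 were higher, and the median difference was -0.03. Of the other 7 BEACH family members above the floor, 0 were 2-fold apart, and they lay between -0.26 (Lyst) and 0.51 (Nbea).

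The first question is how far the classical TNF targets stood in each genotype. Of 22 TNF target genes analysed, 21 were lower in FAN -/- cells with TNF, 9 of them at least 2-fold, and the median difference was -0.67. Several of the others had nearly equal signals. Nfkbia, which encodes the inhibitor IkB-alpha, had signals of 16630 in wild-type and 16600 in FAN -/- cells with TNF. Tnfaip3, which encodes the ubiquitin-editing NF-kB inhibitor A20, had 6170 and 5611. The monocyte chemoattractants Ccl2 (16133 and 14345) and Ccl7 (7456 and 6849) and the adhesion molecule Icam1 (4417 and 3840) were also within 0.5 log2 units of each other. In all, 9 of the 22 targets were that close. The signals of Nfkbia and Ccl2 with TNF were near the highest values on their arrays. Whether signals are compressed there, which would bring them closer, was not tested.

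At the other end of the same list stood Il6, which encodes the cytokine interleukin-6. Its signal was at the floor in both untreated cultures, 2520 in wild-type cells with TNF and 294 in FAN -/- cells with TNF, 8.56-fold lower. Lcn2, which encodes the iron-siderophore binding protein lipocalin-2, read 1959 and 7501 in wild-type cells without and with TNF, against the floor and 286 in FAN -/- cells. The FAN -/- cells with TNF therefore had less Lcn2 signal than wild-type cells had without it. Mmp3, the matrix protease stromelysin-1, stood at 4135 and 16852 in wild-type cells and at 89 and 3186 in FAN -/- cells. Cfb, which encodes complement factor B, read 95.3 and 1628 in wild-type cells and 118 and 334 in FAN -/- cells. Sod2, the mitochondrial superoxide dismutase, was 1385 and 7564 in wild-type cells and 1163 and 2807 in FAN -/- cells. Its 3 other probe sets were also at least 2-fold lower in FAN -/- cells with TNF.

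Between these ends were genes whose gap was wide without TNF and narrow with it. Saa3, an acute-phase serum amyloid, read 1105 untreated and 16155 with TNF in wild-type cells, and 210 and 9717 in FAN -/- cells. Its difference was -2.39 without TNF and -0.73 with it. The wild-type Saa3 signal with TNF was near the highest values on that array. Whether compression at the top of the range narrowed this gap was not tested. Across the 22 targets, with values raised to the floor, the gap was smaller with TNF for 12 and larger for 10. This split depends on the floor. Il6 was at the floor in both untreated cultures and gives no untreated gap. Untreated values were also at the floor for Ccl5, Cxcl2, Cxcl3 and Lcn2 in FAN -/- cells and for Cxcl10 in wild-type cells. Their untreated gaps are therefore bounds. Ptgs2, the inducible cyclooxygenase, was the single target with a positive difference, with 6256 in wild-type and 6902 in FAN -/- cells with TNF, and its other probe set did not have the same sign. The differences with TNF and the TNF responses of a genotype share the TNF arrays, so the 4 values are given side by side and nothing is read from their agreement.

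**Figure D2:**
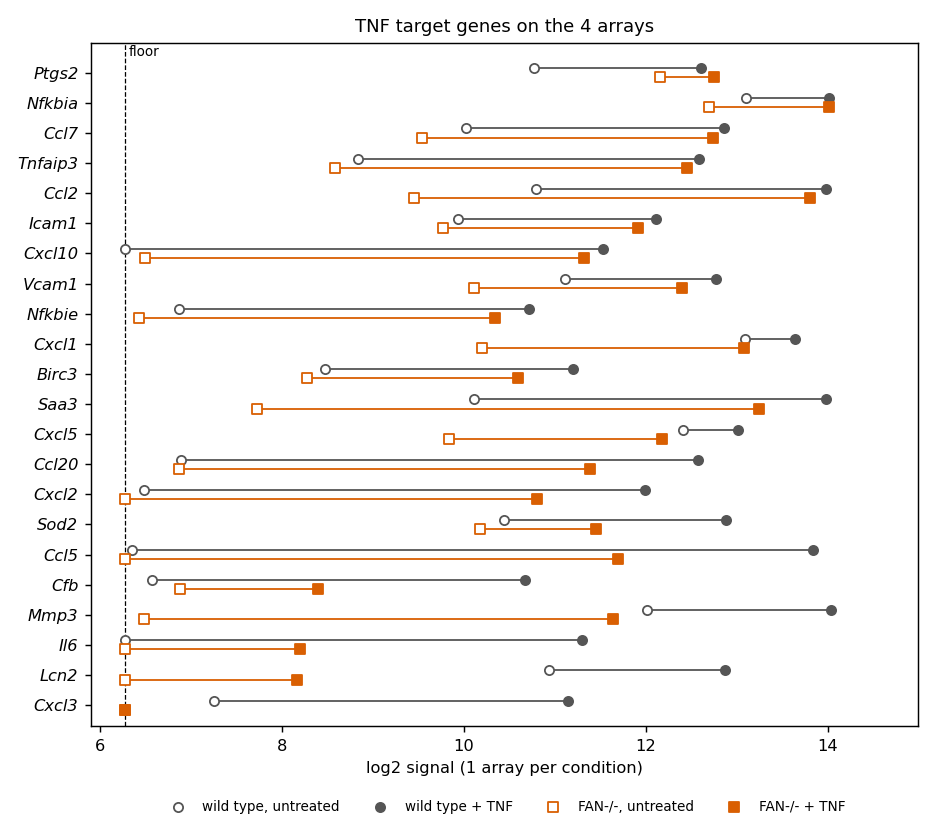
Log2 signal of the 22 TNF target genes analysed on the 4 arrays, 1 array per condition, ordered by the difference with TNF. Circles are wild type and squares FAN -/-, open without and filled with TNF, a line joins the pair of 1 genotype and the dashed line is the floor; the filled symbols lie close together for Nfkbia, Tnfaip3 and Ccl2 and far apart for Cxcl3, Lcn2 and Il6.

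Chemokines of the CXC class, most of which draw neutrophils or lymphocytes, were listed together with the CX3C chemokine Cx3cl1. Of 13 above the floor, 5 with Cx3cl1 or 4 of 12 without it were at least 2-fold lower in FAN -/- cells with TNF, against 2.70% of all genes compared, 0 were higher and the median difference was -0.57. Cxcl15 read 7698 and 4072 in wild-type cells without and with TNF, and 191 and the floor in FAN -/- cells, so with TNF it was at least 52.9-fold lower. Ppbp, whose product is processed to the neutrophil attractant NAP-2, read 897 and 1010 in wild-type and 129 and 121 in FAN -/- cells. Both of these were nearly as far apart without TNF, by -5.33 and -2.79. Cx3cl1, the membrane-bound chemokine fractalkine, read 2821 and 1388 with TNF, and averaging all its probe sets gave -0.58, under 2-fold.

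The neighbouring genes Cxcl1, Cxcl2 and Cxcl3 encode closely related ligands of the neutrophil receptor CXCR2, and their values with TNF were far from alike. Cxcl1 read 8725 and 12793 in wild-type cells and 1173 and 8636 in FAN -/- cells, a difference of -0.57 with TNF. Cxcl2 read 89.1 and 4058 in wild-type cells and the floor and 1779 in FAN -/- cells, a difference of -1.19. Cxcl3 read 152 and 2252 in wild-type cells and stayed at the floor in FAN -/- cells with and without TNF, at least 29.2-fold lower with TNF. Close paralogs can share probe matches, and Cxcl3 has 1 probe set here. The 250 bases upstream of each start, from RefSeq on GRCm38.p6, are shown because these genes, and Il6, differ so much in their values while each holds the same kind of site. The capitals mark matches to the 10-letter kappaB consensus bound by NF-kB, searched on both strands, and where matches on the 2 strands overlap they form 1 run. The windows are chr5:90890995-90891244 for Cxcl1, chr5:90903649-90903898 for Cxcl2, chr5:90785851-90786100 for Cxcl3 and chr5:30012864-30013113 for Il6, each on the plus strand and written 5′ to 3′.
Cxcl1: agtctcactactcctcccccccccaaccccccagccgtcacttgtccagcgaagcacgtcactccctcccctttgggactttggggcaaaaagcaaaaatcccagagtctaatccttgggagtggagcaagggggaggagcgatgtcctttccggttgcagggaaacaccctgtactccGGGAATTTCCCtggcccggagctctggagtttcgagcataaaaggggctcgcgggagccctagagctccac
Cxcl2: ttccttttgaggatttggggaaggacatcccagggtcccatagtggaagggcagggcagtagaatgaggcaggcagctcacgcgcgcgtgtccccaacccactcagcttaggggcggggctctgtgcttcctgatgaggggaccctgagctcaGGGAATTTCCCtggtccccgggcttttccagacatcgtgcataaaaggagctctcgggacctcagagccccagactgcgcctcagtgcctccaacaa
Cxcl3: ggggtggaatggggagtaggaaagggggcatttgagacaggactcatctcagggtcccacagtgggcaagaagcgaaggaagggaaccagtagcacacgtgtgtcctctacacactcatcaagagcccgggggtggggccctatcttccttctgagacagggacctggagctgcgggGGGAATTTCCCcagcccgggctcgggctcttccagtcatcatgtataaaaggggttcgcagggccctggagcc
Il6: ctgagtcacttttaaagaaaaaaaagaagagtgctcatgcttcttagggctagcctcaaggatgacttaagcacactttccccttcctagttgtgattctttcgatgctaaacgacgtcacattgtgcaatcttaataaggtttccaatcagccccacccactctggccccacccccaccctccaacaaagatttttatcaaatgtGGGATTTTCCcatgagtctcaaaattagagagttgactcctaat
Cxcl1, Cxcl2 and Cxcl3 each have 2 overlapping matches and Il6 has 1. Such a match stood upstream of 8.23% of 27025 genes with a promoter sequence, 10.8% of the 9669 compared genes, 16.5% of 242 lower genes and 6.72% of 134 higher genes. In the lists it stood in 4 of 11 CXC and CX3C chemokines, 2 of 6 CC chemokines and 6 of 10 NF-kB inhibitors. Cxcl10, a ligand of CXCR3 on T cells, has 3 such matches, and its signals with TNF were 2947 in wild-type and 2562 in FAN -/- cells. A match describes letters in this window and not binding.

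CC chemokines, which draw monocytes and T cells among others, were divided. Of 11 above the floor, 3 were at least 2-fold lower with TNF in FAN -/- cells, 0 were higher, 8 were within 0.5 log2 units, and the median difference was -0.12. With the floor at the 70th percentile 6 of them were compared and the median was -0.78. Ccl5 (RANTES) read 81.8 and 14699 in wild-type cells and the floor and 3319 in FAN -/- cells, 4.43-fold lower. Ccl9 read 92 and 1991 in wild-type cells and the floor and 255 in FAN -/- cells, 7.82-fold lower, with its other probe set also at least 2-fold lower. Ccl20, the ligand of CCR6, read 118 and 6091 in wild-type cells and 117 and 2688 in FAN -/- cells. In the untreated cultures Ccl20 had nearly equal signals, a difference of -0.02, while Ccl5 and Ccl9 were at the floor in FAN -/- cells and little above it in wild-type cells, so that no untreated gap can be read for them.

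Among 17 cytokines and colony-stimulating factors above the floor, 4 were at least 2-fold lower with TNF and 1 was higher, and the median was -0.41. Besides Il6 the lower genes were Tslp, Tnfsf11 and Il1rn. Tslp, an epithelial-type alarmin, read 870 and 2384 in wild-type cells and 82.8 and 280 in FAN -/- cells. Tnfsf11, which encodes the osteoclast factor RANKL, was above the floor on the wild-type TNF array alone, at 329, at least 4.28-fold lower in FAN -/- cells, but with the floor at the 70th percentile the difference was -0.52. Il1rn, the interleukin-1 receptor antagonist, read 2731 and 2768 in wild-type cells and 2570 and 771 in FAN -/- cells. The Il1rn gap was therefore seen with TNF and not without it, where the difference was -0.09. Il11, a cytokine that signals through gp130, was the higher gene (94.4 and 218).

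Of 20 cytokine and TNF receptors, 4 were at least 2-fold lower and 0 higher, with a median of -0.41 with TNF and 0.01 without. Among these 20, Tnfrsf1a, which encodes TNFR1, the receptor that FAN binds, differed by -0.05, with signals of 3034 in wild-type and 2928 in FAN -/- cells with TNF. The lower receptors were Il13ra1 (1146 and 260 with TNF), the decoy receptor Il13ra2 (358 and 149), the interleukin-1 receptor Il1r1 (1430 and 560) and the leukaemia inhibitory factor receptor Lifr (976 and 404). The 3 other probe sets of Il13ra1 were also 2-fold lower, whereas averaging all probe sets gave -0.55 for Il1r1 and -0.78 for Lifr, and the floor at the 70th percentile gave -0.64 for Il13ra2. Among 13 Toll-like receptors and adaptors, 3 were at least 2-fold lower, 0 higher, and the median was -0.49. Tlr2, the receptor for bacterial lipopeptides, read 270 and 2696 in wild-type cells and 121 and 812 in FAN -/- cells. Irak3, an inhibitor of Toll-like receptor signalling, read 682 and 161 with TNF, and Nod1, a sensor of bacterial peptidoglycan, 755 and 339.

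The NF-kB machinery itself differed little. Of 15 subunits and adaptors above the floor 0 were 2-fold apart in either direction, 12 were within 0.5 log2 units and the median was -0.08. Of 12 NF-kB inhibitors and feedback genes, 10 were within 0.5 log2 units, 1 was at least 2-fold lower and the median was -0.17. The lower gene was Tnfaip8, an inhibitor of cell death, at 610 in wild-type and 186 in FAN -/- cells with TNF, and averaging its probe sets gave -0.33. Nfkbie (1686 and 1299) and Birc3, which encodes the ubiquitin ligase cIAP2 (2351 and 1543), were lower by less than 2-fold. Nfkb1 and Ripk1 were not analysed here.

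Interferon-inducible genes were mostly lower in FAN -/- cells with TNF. Over the lists of interferon-inducible GTPases, STAT and IRF factors, antiviral effectors and MHC class I genes, 59 of 65 genes had a negative difference, 18 (27.7%) were at least 2-fold lower, 0 were higher and the median was -0.64. Among 10 interferon-inducible GTPases, which attack vacuoles of intracellular microbes, 5 were at least 2-fold lower, and the median was -1.06 with TNF and -0.29 without. The untreated median covers 9 genes. Some of their untreated FAN -/- values were at the floor, as for Gbp6 and Iigp1, so it may understate the untreated gap. Gbp6, a guanylate-binding protein, read 114 and 4326 in wild-type cells and the floor and 288 in FAN -/- cells, 15-fold lower. Iigp1, an immunity-related GTPase, read 94.4 and 603 in wild-type cells and the floor and 115 in FAN -/- cells. Other probe sets of Gbp6 and Iigp1 were also at least 2-fold lower. Gbp3 (802 and 333 with TNF), Gbp7 (529 and 201) and Irgm2 (693 and 252) made up the remainder, while Irgm1, among the 2 members of this list with a positive difference, stood at 0.74.

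The promoters of 3 of these GTPases and of the antiviral gene Ifit1 are shown because the sequence that interferon-activated STAT and IRF complexes recognise recurs in them. The capitals mark the core GAAANNGAAA of the interferon-stimulated response element, searched on both strands, where a match on the other strand reads as its reverse complement. The windows are chr3:142559794-142560043 for Gbp3, chr3:142530086-142530335 for Gbp7, chr11:58214727-58214976 for Irgm2 and chr19:34640639-34640888 for Ifit1, on the plus strand of GRCm38.p6 from RefSeq, 5′ to 3′. Gbp3 has 2 listed starts and the one with a match is shown.
Gbp3: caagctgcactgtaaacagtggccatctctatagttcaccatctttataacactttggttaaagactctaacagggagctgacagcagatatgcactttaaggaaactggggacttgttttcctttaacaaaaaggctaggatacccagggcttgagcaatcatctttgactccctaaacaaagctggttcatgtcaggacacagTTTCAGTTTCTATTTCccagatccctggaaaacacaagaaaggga
Gbp7: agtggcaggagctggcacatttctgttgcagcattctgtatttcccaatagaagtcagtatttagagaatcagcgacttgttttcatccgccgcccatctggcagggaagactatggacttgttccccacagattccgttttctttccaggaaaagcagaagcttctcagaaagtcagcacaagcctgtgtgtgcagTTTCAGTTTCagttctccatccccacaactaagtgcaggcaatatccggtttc
Irgm2: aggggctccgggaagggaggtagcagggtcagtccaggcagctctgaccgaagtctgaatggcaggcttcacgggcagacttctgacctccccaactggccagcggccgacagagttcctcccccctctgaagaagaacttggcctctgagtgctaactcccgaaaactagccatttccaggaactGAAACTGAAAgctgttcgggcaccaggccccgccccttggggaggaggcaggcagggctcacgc
Ifit1: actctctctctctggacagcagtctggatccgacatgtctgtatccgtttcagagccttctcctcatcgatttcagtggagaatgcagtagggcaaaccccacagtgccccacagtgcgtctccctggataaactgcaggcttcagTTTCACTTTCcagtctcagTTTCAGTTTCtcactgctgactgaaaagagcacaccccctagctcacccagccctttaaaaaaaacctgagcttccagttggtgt
The core stood in this window in 6 of 7 interferon-inducible GTPases and 6 of 20 antiviral genes with a promoter sequence. Over 27025 genes it stood in 3.46%, over the compared genes in 2.97%, over 242 lower genes in 7.85% and over 134 higher genes in 2.24%. It also stood in 2 of 11 CXC and CX3C chemokines and 1 of 11 MHC class I genes. The kappaB consensus stood in 0 of the 7 GTPases, 5 of the 20 antiviral genes and 4 of the 11 MHC class I genes. The 4 promoters shown are all of genes at least 2-fold lower. Gbp2 (-0.68) and Ifit3 (-0.82), which were under 2-fold lower, hold the interferon-stimulated response element core as well. No promoter sequence was held for Gbp6 and Iigp1.

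Of 28 antiviral effectors and RNA sensors above the floor, 28 had a negative difference with TNF, 9 were at least 2-fold lower and the median was -0.59. In the untreated pair the median was -0.47, over 23 genes. Oasl2, a member of the oligoadenylate synthetase family, was at the floor in both untreated cultures and read 377 in wild-type and 101 in FAN -/- cells with TNF. Ifit1, which binds foreign RNA ends, read 242 and 957 in wild-type cells and 80 and 284 in FAN -/- cells. Ifitm1, a membrane protein that blocks virus entry, read 352 and 3939 in wild-type cells and 217 and 1234 in FAN -/- cells. Each of these was lower on the FAN -/- TNF array. In the untreated pair Ifit1 differed by -1.60 and Ifitm1 by -0.70. The other members taken by the naming rule were Parp14, Usp18, Xaf1, Bst2 and Ifih1, with differences from -1.44 to -1.17. With the floor at the 70th percentile Oasl2 and Usp18 were under 2-fold, and with probe sets averaged Parp14 and Xaf1 were.

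Of 13 STAT and IRF factors 0 were at least 2-fold apart, 10 had a negative difference and the median was -0.50. Within that list of 13, Irf1, the interferon regulatory factor that NF-kB induces, differed by -0.02, while Irf7 differed by -0.83 and Jak2 by -0.70. Of 14 MHC class I and peptide-loading genes, 13 had a negative difference, 4 were at least 2-fold lower, 0 higher and the median was -0.70. H2-M3, a non-classical class I molecule, read 724 in wild-type and 297 in FAN -/- cells with TNF. The immunoproteasome subunits Psmb9 (370 and 157) and Psmb8 (1138 and 517) and the peptide-trimming enzyme Erap1 (641 and 300) were the others. Psmb9 was under 2-fold with the floor at the 70th percentile and Psmb8 with probe sets averaged. The median of this list was -0.38 without TNF, over 13 genes.

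Complement genes are secreted innate immune proteins, and 3 of the 9 above the floor were at least 2-fold lower, 0 higher, with a median of -0.62. C1ra and C1s1 encode the proteases of the first component. C1ra read 3902 and 4891 in wild-type cells and 1194 and 1274 in FAN -/- cells, and C1s1 read 2929 and 5367 against 1412 and 1802. For both, the FAN -/- signal with TNF was under that of untreated wild-type cells. Of 8 acute-phase and antimicrobial genes 5 were at least 2-fold lower, 0 higher, and the median was -1.84 with TNF and -1.62 without. That median moved with the floor, to -1.26 at the 30th percentile, to -2.43 at the 70th and to -0.60 with no floor. Besides Lcn2 the lower genes were Steap4, Hp, Lbp and Cp. Steap4, a metalloreductase, read 856 and 6110 in wild-type cells and the floor and 509 in FAN -/- cells. Hp, which encodes haptoglobin, read 176 and 1442 against the floor and 127. Lbp, the lipopolysaccharide-binding protein, read 496 and 6308 against 121 and 1171, and Cp, ceruloplasmin, 3208 and 1342 with TNF.

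Among 14 matrix metalloproteinases and their inhibitors 3 were at least 2-fold lower, 0 higher, with a median of -0.46. Mmp13, a collagenase, read 403 and 4275 in wild-type cells and the floor and 353 in FAN -/- cells, 12.1-fold lower with TNF. Mmp19 stood close to the 2-fold line at -1.01 and went under it with the higher floor, with no floor and after quantile normalization. Of 4 plasminogen-system genes above the floor 0 were 2-fold apart. Of 10 prostaglandin genes 3 were at least 2-fold lower, 1 higher, and the median was -0.25. The lower genes were the prostacyclin receptor Ptgir (333 in wild-type cells with TNF and the floor in FAN -/- cells), the prostaglandin F receptor Ptgfr (352 and 97.3) and the degrading enzyme Hpgd (212 and the floor). Ptgfr had 2 other probe sets that were also 2-fold lower. With the floor at the 70th percentile Ptgir and Ptgfr were under 2-fold, and with probe sets averaged Ptgfr and Hpgd were. The prostacyclin synthase Ptgis was higher in FAN -/- cells, at 723 and 404 in wild-type cells and 1510 and 1348 in FAN -/- cells.

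Redox and nitric-oxide genes went both ways, with 4 of 15 at least 2-fold lower, 4 higher and a median of 0.55. The higher genes were Nqo1, Gclc, Hmox1 and Gpx3, of which the first 3 are known targets of the oxidant-responsive factor NRF2. Nqo1, a quinone reductase, read 321 and 194 in wild-type cells and 700 and 767 in FAN -/- cells. Hmox1, haem oxygenase-1, read 1412 and 1134 in wild-type cells and 2204 and 2892 in FAN -/- cells. Gclc, a subunit of the glutathione-making enzyme, differed by 1.39 with TNF and the peroxidase Gpx3 by 1.13. The lower genes were Sod2, the extracellular dismutase Sod3 (7972 and 3209 with TNF), Gch1, which makes the nitric oxide synthase cofactor (1019 and 357), and Xdh (287 and 133), which was under 2-fold with the floor at the 70th percentile. In the glutathione transferase family Gsta4 read 1034 and 279 in wild-type cells and 1678 and 1314 in FAN -/- cells, 4.72-fold higher with TNF.

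Death effectors showed no common direction. Of 18 caspases and death effectors 14 were within 0.5 log2 units, 1 was at least 2-fold lower, 1 higher and the median was -0.01. The inflammatory caspase Casp4 read 1555 in wild-type and 678 in FAN -/- cells with TNF, and the p53-inducible BH3 protein Pmaip1 (Noxa) 694 and 2350. Of 10 leukocyte adhesion genes 1 was at least 2-fold higher and 0 lower. This was F11r, which encodes the junctional adhesion molecule A, at 110 and 113 in wild-type cells and 757 and 694 in FAN -/- cells, while Vcam1 was 6981 and 5386 with TNF.

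Over the 254 genes of these inflammatory lists, 187 had a negative difference with TNF, 57 (22.4%) were at least 2-fold lower and 8 (3.15%) were at least 2-fold higher, with a median of -0.33. Over the 11971 genes the corresponding values were 5523 genes, 2.70%, 1.58% and 0.02. These lists were chosen with earlier results of these data known. Of the 57 lower genes, 52 were above the floor on both TNF arrays. In 28 of the 57 the FAN -/- signal with TNF lay below that of wild-type cells without TNF. The 28 include genes whose wild-type signal was lower with TNF than without, such as Cxcl15, Hpgd and Mmp19. No such share is given here for all 323 lower genes. In the untreated pair 25 of the 57 were already at least 2-fold lower and 32 were not, with values raised to the floor. Over all 323 lower genes, 179 (55.4%) were at least 2-fold lower untreated. Among the 32, Il6, Tnfsf11, Gbp3 and Oasl2 were at the floor in both untreated cultures and give no untreated gap. For others, such as Cxcl3, Ccl5 and Gbp6, the untreated FAN -/- value was at the floor, so the gap may be wider.

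**Figure D3:**
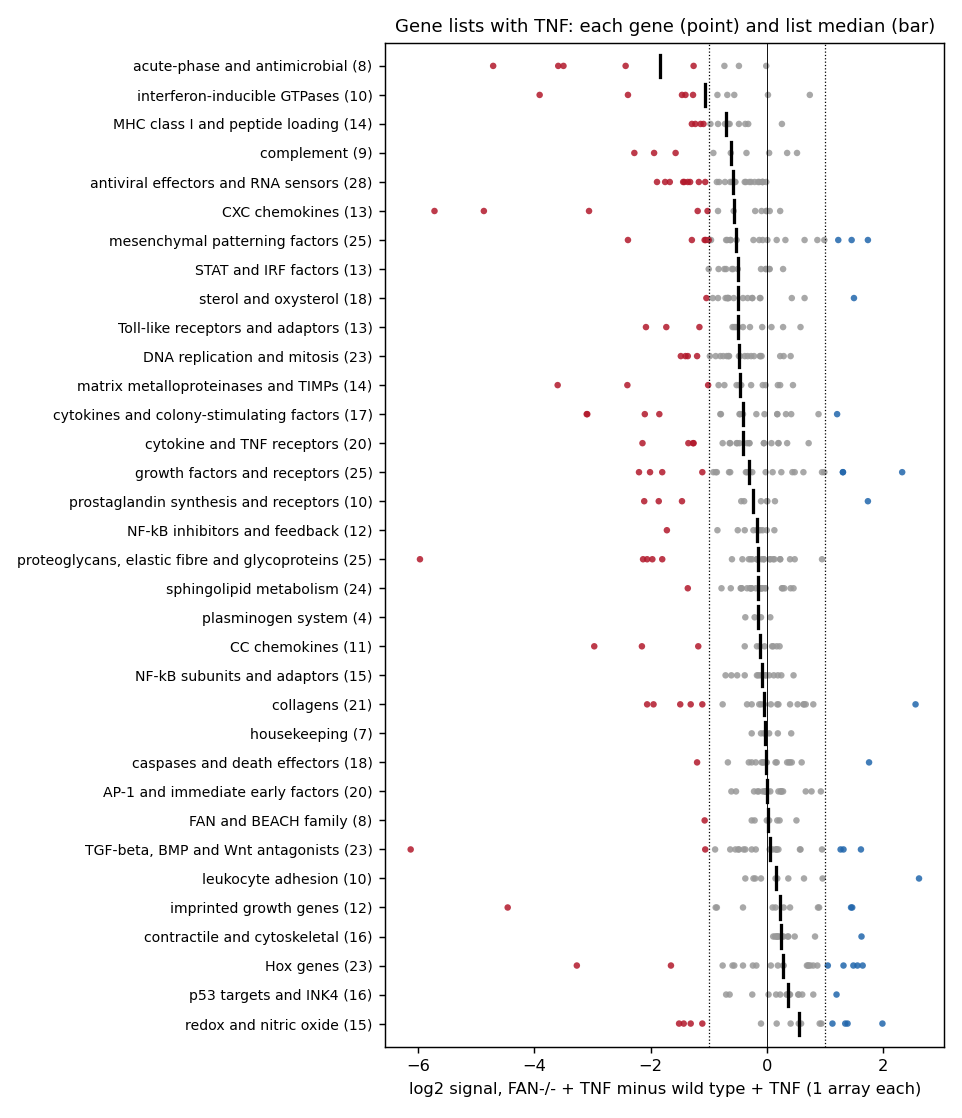
Log2 difference with TNF, FAN -/- minus wild type, of every gene above the floor in 34 gene lists (number of genes in parentheses), with 1 array a side. Points are genes, blue at least 2-fold higher, red at least 2-fold lower, grey neither; black bars are list medians, dotted lines mark 2-fold, and the medians run from -1.84 (acute-phase and antimicrobial) to 0.55 (redox and nitric oxide).

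Of the genes measured above the floor on both TNF arrays, Penk, Sfrp2 and Lum had the lowest differences. Penk, which encodes the opioid precursor proenkephalin, read 14777 and 10096 in wild-type cells and 113 and 142 in FAN -/- cells, 71.1-fold lower with TNF. Sfrp2, a secreted Wnt modulator, read 14214 and 8375 in wild-type cells and 207 and 120 in FAN -/- cells. Lum, the collagen-binding proteoglycan lumican, read 6876 and 10978 in wild-type cells and 438 and 175 in FAN -/- cells, 62.7-fold lower with TNF. These 3 were far apart without TNF as well, by untreated differences of -7.04, -6.10 and -3.97. Mest, an imprinted gene, read 4710 and 2033 against 644 and 92.3. The remaining genes among the 12 lowest measured on both arrays were Coch (1623 and 84.8 with TNF), the angiotensin receptor Agtr2 (1134 and 104) and the matrix protein Abi3bp (3175 and 310). Beyond the chemokines Cxcl15 and Cxcl3, the largest lower bounds were those of the ferritin receptor Scara5 (at least 17.9-fold), the phospholipase Plce1 (at least 7.39-fold), the chitinase-like Chil1 (at least 5.71-fold) and the homeobox factor Barx1 (at least 5.23-fold). With the floor at the 70th percentile Chil1 and Barx1 were under 2-fold.

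Collagens went both ways. Of 21 above the floor 5 were at least 2-fold lower, 1 higher, 9 were within 0.5 log2 units, 10 had a positive and 11 a negative difference, and the median was -0.05, which was 0.09 with probe sets averaged. The lower collagens included the 3 chains of collagen VI, a beaded-filament collagen of the pericellular matrix. Col6a1 read 9403 and 9932 in wild-type cells and 4604 and 4594 in FAN -/- cells. Col6a2 read 7871 and 7838 against 3239 and 2034, and Col6a3 read 5320 and 5225 against 1965 and 1250. Wild-type signals of the 3 chains were nearly equal without and with TNF. Col18a1 (2483 and 886 with TNF) and Col5a3 (4197 and 1697) were also lower, and Col5a3 was under 2-fold with probe sets averaged. Col7a1, the anchoring-fibril collagen, was higher, at 224 and 292 in wild-type cells and 974 and 1721 in FAN -/- cells. Among the 21 collagens the fibrillar chains Col1a1 and Col1a2 differed by -0.34 and -0.05.

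Of 25 proteoglycan, elastic-fibre and glycoprotein genes 5 were at least 2-fold lower, 0 higher, 18 were within 0.5 log2 units and the median was -0.16. Besides Lum, the small leucine-rich proteoglycans Dcn (10218 and 2336 with TNF), Fmod (4270 and 1087) and Prelp (4523 and 1297) were lower, as was the basement-membrane protein Fbln1 (1645 and 394). All 5 other probe sets of Fmod were also at least 2-fold lower. In contrast, 16 of 16 contractile and cytoskeletal genes had a positive difference, 14 of them within 0.5 log2 units, with a median of 0.25 both with and without TNF. The smooth-muscle gamma-actin Actg2 was 2-fold higher, at 516 and 414 in wild-type cells and 1992 and 1276 in FAN -/- cells.

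Growth factors and their receptors were mixed, with 4 of 25 at least 2-fold lower, 3 higher and a median of -0.30. Lower genes were the IGF carrier Igfbp3 (2281 and 495 with TNF), the receptors Fgfr2 (1848 and 458) and Pdgfra (2751 and 789), and Hgf (212 and 98.3), which was under 2-fold with no floor and with probe sets averaged. Higher genes were another IGF carrier, Igfbp6 (229 and 1155), Igf1 (237 and 589) and Pdgfa (368 and 914). The receptor Pdgfra was thus lower and a ligand of it, Pdgfa, higher on the same array. Of 23 TGF-beta, BMP and Wnt genes 2 were at least 2-fold lower, 3 higher, and the median was 0.05, which was -0.13 with the floor at the 30th percentile and -0.16 with none. Sfrp1, a relative of Sfrp2, stood the opposite way from it, at 1372 and 759 in wild-type cells and 5535 and 2340 in FAN -/- cells. Wnt5a (421 and 1047 with TNF) and the activin subunit Inhba (2365 and 5708) were higher and the Wnt5a receptor Ror2 (381 and 183) lower. Inhba and Ror2 were under 2-fold with probe sets averaged.

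The highest genes of all were of several kinds. Cd99, a leukocyte and endothelial adhesion protein, was read by 3 probe sets. The probe set of highest mean, an _x_at set that can match related sequences, was at the floor on both wild-type arrays and read 1335 and 1942 in FAN -/- cells, at least 25.2-fold higher with TNF. The other 2 probe sets read 94.4 and 107 in wild-type cells with TNF, above the floor, and gave differences of 3.41 and 3.35. C1qtnf3, a secreted C1q-like protein, read 324 and 88.7 in wild-type cells and 1759 and 689 in FAN -/- cells. Plac8 read 465 and 522 in wild-type cells and 3411 and 3691 in FAN -/- cells. For each of these 3 the FAN -/- values were the higher ones both without and with TNF. The integrin chain Itga8 (244 and 1462 with TNF), the peptide hormone precursor Cck (78.2 and 446), the NF-kB scaffold Card10 (121 and 609), the desmosomal p53 target Perp (331 and 1561), the retinoic-acid synthesising enzyme Aldh1a2 (137 and 629) and the zinc-finger gene Zfp462 (110 and 477) completed the 12 highest with genes named elsewhere. The largest higher bounds after Cd99 were Serpinb6b, Slc22a23, the phosphatase Dusp4, the phosphodiesterase Pde8b and Hoxb9, from at least 5.22-fold to at least 2.5-fold. With the floor at the 70th percentile Cck, Serpinb6b, Slc22a23 and Dusp4 were under 2-fold, and Hoxb9 and Pde8b had no value.

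Hox genes and other patterning factors, which record the body position from which a fibroblast came, differed in both directions. Of 23 Hox genes above the floor 5 were at least 2-fold higher and 2 lower, with a median of 0.29 with TNF and 0.39 without. Higher were Hoxc6, Hoxc8, Hoxc10, Hoxb2 and Hoxb9. Hoxc6 read 359 and 319 in wild-type cells and 1178 and 1001 in FAN -/- cells, and Hoxc10 read 503 and 335 against 1417 and 990. Lower were the limb-patterning genes Hoxd13, at 1939 and 924 against 109 and 96.1, and Hoxa11, at 592 and 432 against 193 and 137. These Hoxc genes were thus high and Hoxd13 low in both FAN -/- cultures. Of 25 mesenchymal patterning factors 5 were at least 2-fold lower, 3 higher, and the median was -0.52. Besides Barx1, Foxf1 (364 and 149 with TNF), Msx1 (484 and 231), Twist1 (690 and 333) and Foxf2 (165 and 82.1) were lower, and Lhx9 (101 and 338), Meis2 (226 and 621) and Twist2 (829 and 1941) were higher. Foxf1, Msx1 and Lhx9 were under 2-fold with probe sets averaged, and Hoxa11 and Hoxb2 with the floor at the 70th percentile. Of 12 imprinted growth genes Mest was lower, and Peg3 (440 and 1221) and Dlk1 (403 and 1104) were higher, both under 2-fold with probe sets averaged. Whether the 2 cultures differed in the part of the embryo they came from was not tested.

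Proliferation genes were mostly lower in FAN -/- cells. Of 23 DNA replication and mitosis genes above the floor with TNF 4 were at least 2-fold lower, 20 had a negative difference and the median was -0.48. In the untreated pair 14 of 26 were at least 2-fold lower and the median was -1.03. Mki67, which encodes the Ki-67 antigen, read 441 and 216 in wild-type cells and the floor and 77.4 in FAN -/- cells. The topoisomerase Top2a read 471 and 270 against 109 and 105, and the helicase subunit Mcm5 334 and 249 against 91.8 and 94.1. Wild-type signals of these 3 genes were lower with TNF than without, and the FAN -/- signals were near the floor in both. Mcm5, Mcm6 and Top2a were under 2-fold with probe sets averaged. Of 16 p53 targets and INK4 genes 13 had a positive difference, with a median of 0.36, and 1 was at least 2-fold higher. This was Mdm2, the ubiquitin ligase of p53, at 3017 and 3585 in wild-type cells and 6734 and 8219 in FAN -/- cells, with its other probe set also 2-fold higher and the mean of its probe sets at 0.96. Of 20 AP-1 and immediate early genes 0 were 2-fold apart, and 15 were within 0.5 log2 units.

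Sphingolipid enzymes are of interest because FAN couples TNFR1 to neutral sphingomyelinase. Of 24 above the floor 1 was at least 2-fold lower, 0 higher, 21 were within 0.5 log2 units and the median was -0.16. The share lower, 4.17%, was near the 2.70% of all genes compared. The lower gene was Ugcg, glucosylceramide synthase, at 1036 and 2787 in wild-type cells and 651 and 1089 in FAN -/- cells, with 2 other probe sets also 2-fold lower. Of 18 sterol and oxysterol genes 15 had a negative difference and the median was -0.49. Sqle, squalene epoxidase, was 2-fold lower (1877 and 910 with TNF), and the sterol exporter Abcg1 was higher (258 and 729), though under 2-fold with its probe sets averaged.

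The cells carried fibroblast markers on both TNF arrays. Of 12 fibroblast markers 12 were above the floor, 4 at least 2-fold lower (Lum, Dcn, Fbln1 and Pdgfra), 1 higher (Twist2) and the median was -0.41. Fewer fibroblast-type cells and less RNA of a gene per cell cannot be told apart in such bulk RNA. Markers of other cell types were checked beside the inflammatory genes. Of 14 leukocyte markers 6 were above the floor with TNF, with summed signals of 1277 in wild-type and 1164 in FAN -/- cells, and 0 were 2-fold apart. In the untreated pair 2 of 6 leukocyte markers above the floor were at least 2-fold higher in FAN -/- cells. With TNF, Ptprc, Cd68, Adgre1 and Itgam were not above the floor. Of 8 endothelial markers 3 were above it (sums 374.9 and 419.4), without Pecam1 and Cdh5. Of 9 epithelial markers 5 were above it (sums 1007 and 1030), without Cdh1 and Krt14. Skeletal muscle markers numbered 2 of 9 above the floor, without Myod1 and Myog. Markers at least 2-fold apart were Comp (743 and 80.7 with TNF) and Col2a1 (737 and 284) of 5 cartilage and bone markers (sums 1816 and 702.1), Fabp4 (376 and 91.6) of 3 adipocyte markers (sums 625.7 and 303.3), Stmn2 (1828 and 5067) and Tubb3 (82.9 and 261) of 5 neuronal and glial markers (sums 2239 and 5664), and Notch3 (666 and 1422) of 5 pericyte markers (sums 1597 and 2582). The list medians were -0.09 for cartilage and bone, with 2 of 5 positive, and 0.14 for neurons and glia, with 1 of 5 negative. Most of the sums of these 2 lists came from Comp and Col2a1 and from Stmn2. The medians were -0.53 for adipocytes, with 1 of 3 positive, and 0.87 for pericytes, with 1 of 5 negative. Fabp4 and Notch3 were under 2-fold with probe sets averaged and Tubb3 with the floor at the 70th percentile. Their part in the other differences was not tested.

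The untreated pair uses the other 2 arrays and gives the values of the same genes without TNF. There 353 of 11924 genes (2.96%) were at least 2-fold lower in FAN -/- cells and 177 (1.48%) higher. Of the 323 genes lower with TNF, 179 (55.4%) were also at least 2-fold lower untreated, which is 50.7% of the 353, and 0 were at least 2-fold higher. Of the 189 genes higher with TNF, 105 (55.6%) were also higher untreated, 59.3% of the 177. The median difference of the 323 was -1.40 with TNF and -1.07 without, and that of the 189 was 1.31 and 1.08. Both sets were chosen by their difference with TNF, so the untreated medians cannot be weighed against those with TNF. For 17 of the 323 the untreated difference was 0 after values were raised to the floor. Conversely, 174 of the 353 genes lower untreated and 72 of the 177 higher untreated were not 2-fold apart the same way with TNF.

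Some genes were far apart with TNF and measured as closer without it. A set of 16 genes was at least 4-fold lower with TNF and under 2-fold apart untreated with values raised to the floor. They were Cxcl3, Gbp6, Il6, Ccl9, Iigp1, Cfb, Ccl5, Ptgir, Tnfsf11, Irak3 and, outside the inflammatory lists, C730049O14Rik, Clmp, Stxbp6, Itgb8, Prr16 and Fndc1, the last 6 being named after their values were seen. For Cxcl3, Gbp6, Ccl9, Iigp1, Ccl5, Ptgir and Itgb8 the untreated FAN -/- value was at the floor, so that the untreated gap is a lower bound and may be wider. For Il6, Tnfsf11 and C730049O14Rik both untreated values were at the floor and give no gap. The other 6 were measured above the floor on both untreated arrays. With values raised to the floor, the reverse, at least 4-fold lower untreated and under 2-fold with TNF, held for 18 genes. Among them Cxcl1, Cxcl5 and Saa3 had FAN -/- signals with TNF within 2-fold of those of wild-type cells. Cxcl5 read 5457 and 8307 in wild-type cells and 918 and 4626 in FAN -/- cells. In others the wild-type signal was the one that was low with TNF, as in Dkk2, a Wnt antagonist, at 1279 untreated and 190 with TNF in wild-type cells and 224 and 144 in FAN -/- cells, or Igfbp5 at 1303 and 251 against 287 and 159, both picked after their values were seen. For Nrk and Ddx4 both values with TNF were at the floor and give no gap with TNF. For Lrrtm3, Cacna2d3, Map2, Pcp4l1, Clec11a and Rgs2 the FAN -/- value with TNF was at the floor, so that gap may be wider. These genes too were named after their values were seen. Among Cxcl1, Cxcl5, Saa3, Dkk2 and Igfbp5, all above the floor with TNF, a narrow gap thus came about in 2 ways. Either the FAN -/- signal was high or the wild-type signal was low. For the high signals, such as those of Saa3, compression at the top of the range was not tested.

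**Figure D4:**
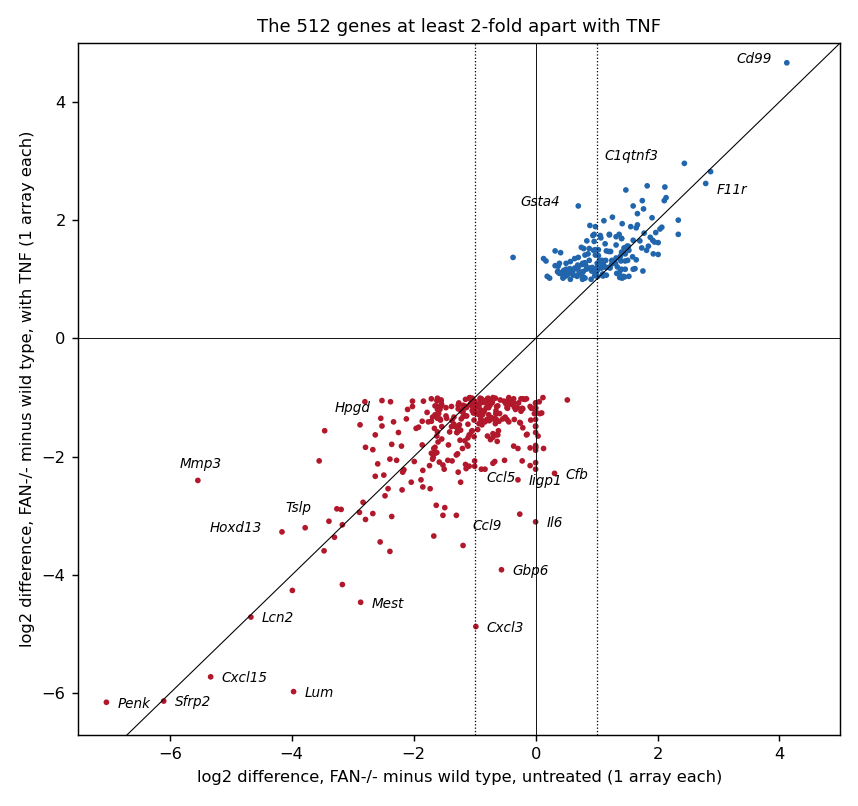
Log2 difference FAN -/- minus wild type without TNF (x axis) and with TNF (y axis) for the 512 genes at least 2-fold apart with TNF, from different arrays on each axis, 1 array per condition. Red points are lower and blue points higher with TNF, dotted lines mark 2-fold untreated and the diagonal marks equal differences; Penk, Sfrp2 and Lcn2 lie near the diagonal, and Cxcl3, Gbp6, Il6, Ccl9, Ccl5 and Cfb lie well below it, most of them with an untreated FAN -/- value at the floor.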

How the data were processed

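The deposited series value table holds 1 column for each of the 4 arrays and 45101 probe sets. Per the submitters' processing notes the arrays were processed with MAS5. Its version, the normalization and the target scale are not given in the sources used here, and the deposited values were taken as log2 signals from their range (2.79 to 14.4). GEO's platform annotation named 1 gene for 34945 probe sets, several for 932 and none for 9160, and 64 were controls; 34741 matched RefSeq and 0 symbols changed. Values were raised to a floor at the 50th percentile (log2 6.27), each gene took its probe set of highest mean over the 4 arrays, and genes above the floor on at least 1 of the 2 arrays compared were kept. A value at the floor on 1 side makes a fold a bound. No test was run, because each condition has 1 array, and at least 2-fold is a rule of size. Counting was tested on simulated data. Alternatives were floors at the 30th and 70th percentiles, no floor (log2 of the signal plus 16), median centring, quantile normalization, the mean of a gene's probe sets, and leaving out probe sets ending in _x_at or _s_at. The members and the 44 gene lists were chosen with earlier results of these data known. Genes were named by a rule: Nsmaf; 23 TNF targets; the 12 highest and 12 lowest genes above the floor on both arrays whose other probe sets had the same sign; the 6 largest bounds each way; up to 8 members of each list at least 2-fold apart; and the 2 genes nearest the 2-fold line on each side. Other list members appear beside their list's count. Of 740 list genes, 59 were not analysed here. Promoters were the 250 bases upstream of RefSeq starts on GRCm38.p6, held for 108 of the 155 named genes. Python 3.11.15, numpy 2.4.6 and pandas 2.3.3 were used.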

Additional observations from a re-analysis of the deposited data

How the results depend on the processing

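No paired analysis was possible because each condition has 1 array and the labels carry no replicate numbers. Against 189 higher and 323 lower genes, the floor at the 30th percentile gave 219 and 370, that at the 70th gave 112 and 217 (fewer genes, 8288, were compared), no floor 187 and 330, median centring 178 and 337, quantile normalization 201 and 314, the mean of a gene's probe sets 137 and 250, and leaving out probe sets ending in _x_at or _s_at 182 and 314. Higher genes made up 34% to 39.0% of those 2-fold apart under these settings, and the median of the compared genes lay between -0.01 and 0.03. Of the 155 named genes, 0 of those with a value were counted as reversed under these settings. That count leaves out sign changes close to 0. The probe sets of Ptgs2 differed by 0.14 and -0.28, so its sign depends on how they are combined. With the floor at the 70th percentile 148 had a value and 25 of them were under 2-fold; Foxf2, Hgf, Hoxb9, Hpgd, Il11, Mki67 and Pde8b had none. With probe sets averaged 154 had a value and 25 were under 2-fold, and without _x_at and _s_at probe sets 152 had one and 3 were under 2-fold. The list medians that crossed 0 under some setting were those close to it, such as collagens, death effectors, and TGF-beta, BMP and Wnt genes. Values near the floor, as in the bounds, limit what these arrays show, and the genotype entries that disagree with 2 titles bear on every direction.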
